A study of Mus musculus with 4 samples.

Results

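MHC class I molecules display peptides cut from proteins made inside the cell, so that CD8 T cells can inspect them at the surface. The 10 genes described here encode the steps of that display. H2-K1 and H2-D1 are the classical class I heavy chains of the mouse, and B2m is the light chain (beta-2-microglobulin) that every class I heavy chain of this kind needs to reach the surface. Tap1 and Tap2 form the transporter that carries peptides into the endoplasmic reticulum, and Tapbp (tapasin) holds the transporter next to the empty class I molecule while a peptide is loaded. Psmb8, Psmb9 and Psmb10 are the catalytic subunits of the immunoproteasome, which take the places of Psmb5, Psmb6 and Psmb7 of the standard proteasome and change where proteins are cut. Nlrc5 is a transactivator that acts at class I promoters and at promoters of several of the other genes. Interferons raise these genes in many cell types, and tumours that escape CD8 T cells often carry low levels of some of them. The genes were chosen by symbol, and 10 of 10 were found among the 32285 genes counted in both matrices of the series.

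The cells came from tumours grown under the skin of B6C3F1 mice (6 to 8 weeks old). The tumours were of OV2944-HM1, an ovarian cancer cell line of the mouse. B6C3F1 mice are the first generation cross of C57BL/6 and C3H mice. In the group labelled IL_27, 100 ng of recombinant mouse interleukin 27 (IL-27, a cytokine of the interleukin 12 family) was given to each mouse in the tumour from the day of implantation and on alternate days after it. The group labelled control got vehicle. How many mice were pooled is not given in the sources used here. On day 14 the tumours were broken up and leukocytes were enriched with beads against CD45, the leukocyte surface antigen encoded by Ptprc. Transcripts were then counted in droplets with a kit that reads their 5' end. The labels call the cells lymphocytes. The counts went against that name, since neutrophils made up 3286 of 9990 kept cells of the IL-27 matrix and 4263 of 10617 of the control matrix. The labels list 4 entries, 2 in each group, but each group has 1 matrix and nothing ties a cell to an entry. Each group is therefore 1 sample, no difference between the groups has a replicate check, and no test could be made.

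Depth was 43868189 UMIs over 10183 barcodes in the IL-27 matrix and 54049661 UMIs over 10784 barcodes in the control matrix. A UMI, or unique molecular identifier, marks 1 captured transcript. The median kept cell had 1870.5 UMIs in the IL-27 matrix and 2408 in the control matrix, and 133 barcodes occurred in both. Kept cells were set to a class by marker genes. A cell entered the class of which it showed the most markers, at least 3, and more than of any other class. No class was given to 34.2% of IL-27 cells and 27.4% of control cells, which were shallow, with medians of 1226 and 1448 UMIs. Class names below stand for this rule and rest on transcripts alone. The 10 classes described here had at least 50 cells in each matrix; the first number below is for the IL-27 matrix and the second for the control matrix. There were 208 and 271 tumour cells, 3286 and 4263 neutrophils, 539 and 467 monocytes, and 1180 and 1480 macrophages. Of dendritic cells (DC) there were 124 and 131 of the conventional type 1 (cDC1), and 268 and 198 mature DC. NK cells numbered 113 and 86, CD8 T cells 99 and 267, and Treg, the Foxp3-bearing regulatory T cells, 294 and 214. The rest of the T cells, 146 and 112, showed none of Foxp3, Cd4 and Cd8 or a mixture of Cd8 with the others. Tumour cells are what the bead enrichment left of the cancer line. CPM below are UMIs of a gene over all UMIs of the class, scaled to 1000000. The 9 tumour markers summed to 5986 CPM in IL-27 tumour cells and 7289 CPM in control tumour cells, of which Krt8 gave 3022 (IL-27) and 3262 (control) CPM. Epcam, Cldn4, Cldn7 and Wt1 were at 0 UMIs in the IL-27 tumour cells, and Wt1 in the control ones. Ptprc stood at 6.01 CPM in IL-27 tumour cells and 2.31 CPM in control tumour cells, while the other 9 classes had from 200.1 to 1615 CPM. The median mitochondrial share of UMIs was higher in the IL-27 matrix in 9 of 10 classes, macrophages being the exception, and its part in the results was not tested.

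In the mouse build GRCm38 with GENCODE M21 gene models, 7 of the genes lie in the MHC region of chromosome 17. H2-K1 is at chr17:33996017-34000347 on the minus strand and H2-D1 at chr17:35262730-35267499 on the plus strand. Tapbp is at chr17:33915899-33929292, plus strand. Psmb9 (chr17:34181987-34187764, minus), Tap1 (chr17:34187553-34197225, plus), Psmb8 (chr17:34197721-34201454, plus) and Tap2 (chr17:34203527-34216321, plus) form a tight run of 34335 bases. B2m is at chr2:122147686-122153083, plus strand. Psmb10 (chr8:105935735-105938444, minus) and Nlrc5 (chr8:94434356-94527272, plus) are on chromosome 8. Psmb9 and Tap1 run in opposite directions from a shared start region, and their models overlap by 212 bases. Models on the opposite strand overlap B2m (Patl2), Psmb8 and Tap2 (Gm20496), Tap2 (Gm15821), Tapbp (Gm19412), Psmb10 (Gm16156) and Nlrc5 (9330175E14Rik), and Zbtb22 overlaps Tapbp on the same strand. Whether the counting used strand is not given in the sources used here, so reads of these pairs may not have been told apart. H2-K1 and H2-D1 belong to a family of near-identical genes, the reference is C57BL/6, and these mice carry 1 C3H copy of the region, so how reads were split among class I heavy chains is uncertain.

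The start regions are shown because most of the 10 genes were higher in the same cells, those with interferon-stimulated transcripts, as given further down. Windows of 250 bases before to 50 after the gene start were given by RefSeq (build GRCm38.p6) for 8 of the 10 genes. Tap2 and Nlrc5 had no window. Distances and the word start refer here to the RefSeq start, which differs from the GENCODE start for some genes. The windows of H2-D1, Tapbp, Psmb8 and Psmb9 lie wholly inside the GENCODE models given above. The letters searched on both strands were TGACG (the core of the X2 box of class I and class II promoters), ATTGG (the Y box, CCAAT on the other strand), TTCNNNGAA (STAT-type), GGGA and CC with 4 free bases between them (NF-kB-type), and a pair of GAAA with 2 or 3 free bases between them (interferon-type). TGACG was found in 5 of the 8 windows (H2-K1, H2-D1, B2m, Tap1 and Psmb9), against 21.0% of the 27025 windows of all genes. ATTGG was in 6 of the 8 (those 5 and Tapbp), against 37.9% of all. The NF-kB-type letters were in the H2-K1, H2-D1 and B2m windows, against 20.5% of all. The interferon-type pair with 2 free bases was in B2m alone (3.49% of all), and that with 3 free bases (2.80% of all) and TTCNNNGAA (8.47% of all) were in Psmb8 alone. Psmb10 had none of these letters. The Tap1 and Psmb9 windows share 275 bases, so their matches are the same bases read from either strand. A match describes these letters in these windows and is neither a bound site nor a cause.

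H2-K1 and B2m, the heavy and light chain genes with the fullest sets, are shown as the 250 bases before the RefSeq start, 5′ to 3′ on the strand of the gene, with the matches in capitals.
H2-K1 (chr17:34000348-34000597, minus strand): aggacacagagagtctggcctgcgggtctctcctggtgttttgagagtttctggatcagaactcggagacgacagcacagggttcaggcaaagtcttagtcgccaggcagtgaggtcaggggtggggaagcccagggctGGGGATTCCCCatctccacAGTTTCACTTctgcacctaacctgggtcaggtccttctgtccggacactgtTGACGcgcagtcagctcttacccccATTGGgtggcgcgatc
B2m (chr2:122147437-122147686, plus strand): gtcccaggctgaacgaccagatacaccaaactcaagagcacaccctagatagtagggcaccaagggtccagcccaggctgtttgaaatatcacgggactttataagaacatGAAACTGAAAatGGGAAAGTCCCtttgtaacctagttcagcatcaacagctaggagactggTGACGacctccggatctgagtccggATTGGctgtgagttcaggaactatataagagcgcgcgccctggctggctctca
In H2-K1 the capitals are, from left to right, the NF-kB-type letters (first base at -111 from the start, read on both strands with an overlap), a run of 10 bases at -92, TGACG at -41 and ATTGG at -16. In B2m they are the interferon-type pair at -139, the NF-kB-type letters at -127, TGACG at -78 and ATTGG at -53. The stretch from the NF-kB-type letters to that run of 10 bases is held by both heavy chain genes, and it is shown for both.
H2-K1 (chr17:34000430-34000458, minus strand): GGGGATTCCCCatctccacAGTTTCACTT
H2-D1 (chr17:35262923-35262951, plus strand): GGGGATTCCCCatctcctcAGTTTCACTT
The 29 bases differ by 1 substitution, A18T, with the H2-K1 base first and positions counted from 1 at the left end. The 10 bases in capitals at its right end were searched only after the sequences had been read; they were in 44 of the 27025 windows (0.163%), and both heavy chain genes were among the 44. Over 240 bases aligned at the NF-kB-type letters without gaps, the H2-K1 and H2-D1 windows were identical at 176 (73.3%). The map of matches shows the order of the elements in each window.

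**Figure D1:**
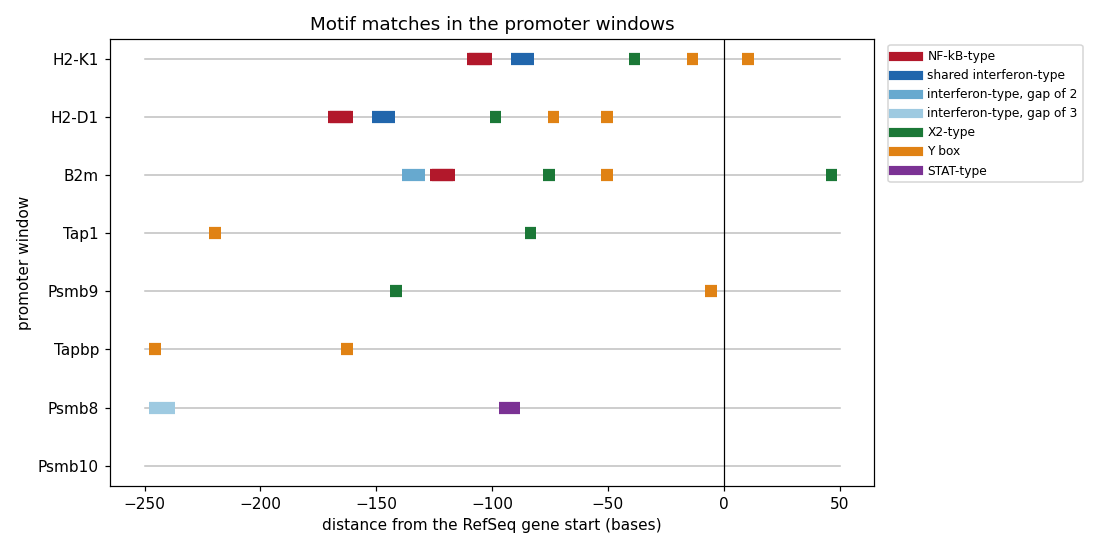
Matches of the searched letters in the RefSeq window of each of 8 genes; the x axis is the distance from the gene start in bases (250 before to 50 after), each row is a gene and each colour a set of letters. H2-K1, H2-D1 and B2m carry NF-kB-type, X2-type and Y box letters in that order before the start, and Psmb10 carries none.

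The heavy chains and the light chain were detected in every class and were highest in Treg in both matrices. Levels are compared for 1 gene at a time across classes, not between genes. H2-K1 levels in the IL-27 matrix were 4139.8 CPM in Treg, 3521 in the rest of the T cells, 3223 in CD8 T cells and 3285 in NK cells. H2-K1 was at 869.8 CPM in cDC1 and 1634 in mature DC of that matrix, and at 862 in macrophages, 661 in monocytes, 622 in neutrophils and 1087 in tumour cells. T cells and NK cells thus formed the upper end of the H2-K1 range, mature DC followed, and neutrophils were lowest. H2-K1 levels in the control matrix were 4923 CPM in Treg, 4118 in the rest of the T cells, 3709 in CD8 T cells and 3964 in NK cells. H2-K1 was at 1247 CPM in cDC1 and 1705 in mature DC of that matrix, and at 945 in macrophages, 907 in monocytes, 712 in neutrophils and 1320.0 in tumour cells. Neutrophils were again lowest, and Treg again highest. The 95% Poisson interval, which covers counting error only, was 4049 to 4232 CPM in IL-27 Treg and 4818 to 5029 CPM in control Treg and did not reach that of any other class. Among the classes below Treg, the rest of the T cells and NK cells overlapped in both matrices, as did NK cells and CD8 T cells in the IL-27 matrix. Tumour cells had more H2-K1 than neutrophils, at 1.75 (1.69 to 1.81) times their level in the IL-27 matrix and 1.85 (1.80 to 1.91) times in the control matrix.

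H2-D1 was also highest in Treg, with the other T cell classes and NK cells next. H2-D1 levels in the IL-27 matrix were 2363 CPM in Treg, 2003 in the rest of the T cells, 1895 in CD8 T cells and 1832 in NK cells. H2-D1 was at 821 CPM in cDC1 and 1255 in mature DC of that matrix, and at 682 in macrophages, 765 in monocytes, 969.6 in neutrophils and 1020.2 in tumour cells. The lowest class was macrophages, not neutrophils. H2-D1 levels in the control matrix were 3251 CPM in Treg, 2690.0 in the rest of the T cells, 2548 in CD8 T cells and 2813 in NK cells. H2-D1 was at 1229 CPM in cDC1 and 1387 in mature DC of that matrix, and at 723 in macrophages, 1069.9 in monocytes, 1328 in neutrophils and 1324 in tumour cells. Macrophages were lowest here too, and Treg were above all other classes beyond counting error in both matrices. The interval of the rest of the T cells overlapped those of CD8 T cells and NK cells in both matrices, but control NK cells lay above control CD8 T cells.

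B2m, the chain shared by all these class I molecules, had a narrow range across classes, 4.17-fold in the IL-27 matrix and 2.94-fold in the control matrix from the lowest to the highest class. B2m levels in the IL-27 matrix were 3052 CPM in Treg, 2763 in the rest of the T cells, 2734 in CD8 T cells and 2616 in NK cells. B2m was at 733 CPM in cDC1 and 2158 in mature DC of that matrix, and at 1549 in macrophages, 1340.2 in monocytes, 1313 in neutrophils and 1267 in tumour cells. Treg were highest. B2m levels in the control matrix were 2551 CPM in Treg, 2259 in the rest of the T cells, 2409 in CD8 T cells and 2315 in NK cells. B2m was at 868 CPM in cDC1 and 1793 in mature DC of that matrix, and at 1561 in macrophages, 1384 in monocytes, 1123 in neutrophils and 1251 in tumour cells. The lowest class for B2m was cDC1 in both matrices, the class in which Tap1, Tap2, Psmb8 and Psmb9 were highest. B2m in cDC1 was 0.240 (0.227 to 0.254) times the Treg level in the IL-27 matrix and 0.340 (0.322 to 0.359) times in the control matrix.

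**Figure D2:**
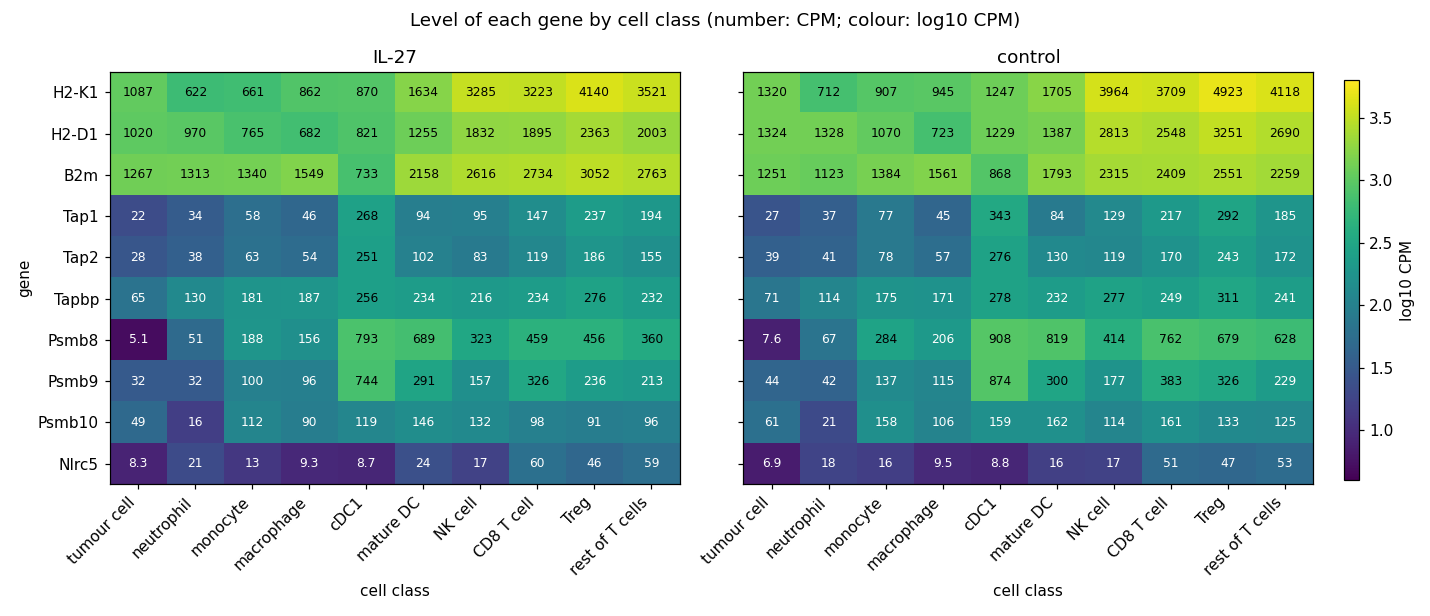
Level of each gene (rows) in each cell class (columns) in the IL-27 matrix on the left and the control matrix on the right; the number is CPM of the UMIs summed over the class and the colour is log10 CPM. The heavy and light chain genes were highest in Treg, the transporter genes and Psmb8 and Psmb9 in cDC1, and Psmb8 was lowest in tumour cells, at 5.14 CPM in the IL-27 matrix and 7.59 CPM in the control matrix.

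The transporter genes had a different order. Tap1 and Tap2 were highest in cDC1, the dendritic cells known for loading class I with material taken up from other cells, and lowest in tumour cells. Tap1 levels in the IL-27 matrix were 237 CPM in Treg, 194 in the rest of the T cells, 147 in CD8 T cells and 95.5 in NK cells. Tap1 was at 268 CPM in cDC1 and 93.7 in mature DC of that matrix, and at 46.1 in macrophages, 58.0 in monocytes, 34.0 in neutrophils and 21.9 in tumour cells. NK cells and mature DC had close values. Tap1 levels in the control matrix were 292 CPM in Treg, 185 in the rest of the T cells, 217 in CD8 T cells and 129 in NK cells. Tap1 was at 343 CPM in cDC1 and 83.6 in mature DC of that matrix, and at 45.4 in macrophages, 77.3 in monocytes, 36.6 in neutrophils and 27.2 in tumour cells. The intervals of cDC1 and Treg overlapped for Tap1 in both matrices, so these classes were not told apart. Tap2 levels in the IL-27 matrix were 186 CPM in Treg, 155 in the rest of the T cells, 119 in CD8 T cells and 83.2 in NK cells. Tap2 was at 251 CPM in cDC1 and 102 in mature DC of that matrix, and at 54.1 in macrophages, 62.6 in monocytes, 37.9 in neutrophils and 28.2 in tumour cells. Below cDC1 the order of the T cell classes was that of Tap1. Tap2 levels in the control matrix were 243 CPM in Treg, 172 in the rest of the T cells, 170.2 in CD8 T cells and 119 in NK cells. Tap2 was at 276 CPM in cDC1 and 130.5 in mature DC of that matrix, and at 57.2 in macrophages, 77.8 in monocytes, 41.3 in neutrophils and 38.6 in tumour cells. For Tap2, cDC1 lay above Treg beyond counting error in the IL-27 matrix, while in the control matrix their intervals overlapped. At the lower end, the Tap2 intervals of tumour cells and neutrophils also overlapped in the control matrix. From the lowest to the highest class Tap1 spanned 12.2-fold in the IL-27 matrix and 12.6-fold in the control matrix, and Tap2 8.90-fold in the IL-27 matrix and 7.16-fold in the control matrix.

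Tapbp, the tapasin gene of the loading complex, was flatter. Tapbp levels in the IL-27 matrix were 276 CPM in Treg, 232 in the rest of the T cells, 234 in CD8 T cells and 216 in NK cells. Tapbp was at 256 CPM in cDC1 and 234 in mature DC of that matrix, and at 187 in macrophages, 181 in monocytes, 129.8 in neutrophils and 65.1 in tumour cells. Treg had the top value. Tapbp levels in the control matrix were 311 CPM in Treg, 241 in the rest of the T cells, 249 in CD8 T cells and 277 in NK cells. Tapbp was at 278 CPM in cDC1 and 232 in mature DC of that matrix, and at 171 in macrophages, 175 in monocytes, 114 in neutrophils and 71.3 in tumour cells. Tumour cells were the lowest class and neutrophils the next beyond counting error. Above them, the interval of each class overlapped that of the next in the IL-27 matrix, and in the control matrix the chain broke only between mature DC and monocytes.

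Psmb8 (also called LMP7), the immunoproteasome subunit that replaces Psmb5, had the widest range of the 10 genes when tumour cells were included. Psmb8 levels in the IL-27 matrix were 456 CPM in Treg, 360.3 in the rest of the T cells, 459 in CD8 T cells and 323 in NK cells. Psmb8 was at 793 CPM in cDC1 and 689 in mature DC of that matrix, and at 156 in macrophages, 188 in monocytes, 50.7 in neutrophils and 5.14 in tumour cells. The dendritic classes led, and tumour cells were far below all others. Psmb8 levels in the control matrix were 679 CPM in Treg, 628 in the rest of the T cells, 762 in CD8 T cells and 414 in NK cells. Psmb8 was at 908 CPM in cDC1 and 819 in mature DC of that matrix, and at 206 in macrophages, 284 in monocytes, 66.9 in neutrophils and 7.59 in tumour cells. From tumour cells to cDC1 this was 154-fold in the IL-27 matrix and 119.7-fold in the control matrix, and among the 9 leukocyte classes alone, where Psmb9 spanned more, 15.6-fold in the IL-27 matrix and 13.6-fold in the control matrix. cDC1 lay above mature DC, and neutrophils above tumour cells, beyond counting error in both matrices. Tumour cells had 0.101 (0.0744 to 0.136) times the Psmb8 level of neutrophils in the IL-27 matrix and 0.113 (0.0903 to 0.141) times in the control matrix. As a mean of per-cell CPM, the neutrophil level of Psmb8 was 33.4 in the IL-27 matrix and 58.9 in the control matrix.

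Psmb9 (LMP2), which replaces Psmb6, was also highest in cDC1. Psmb9 levels in the IL-27 matrix were 236 CPM in Treg, 213 in the rest of the T cells, 326 in CD8 T cells and 157 in NK cells. Psmb9 was at 744 CPM in cDC1 and 291 in mature DC of that matrix, and at 95.9 in macrophages, 99.8 in monocytes, 32.1 in neutrophils and 32.3 in tumour cells. Mature DC were not close to cDC1, unlike for Psmb8. Psmb9 levels in the control matrix were 326 CPM in Treg, 229 in the rest of the T cells, 383 in CD8 T cells and 177 in NK cells. Psmb9 was at 874 CPM in cDC1 and 300.4 in mature DC of that matrix, and at 115 in macrophages, 137 in monocytes, 41.7 in neutrophils and 43.8 in tumour cells. cDC1 lay above the next class, CD8 T cells, beyond counting error in both matrices. The cDC1 level of Psmb9 was 2.56 (2.34 to 2.80) times that of mature DC in the IL-27 matrix and 2.91 (2.66 to 3.18) times in the control matrix. Tumour cells and neutrophils were lowest and overlapped in both matrices. From neutrophils to cDC1 Psmb9 spanned 23.2-fold in the IL-27 matrix and 20.9-fold in the control matrix.

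Psmb10 (MECL-1), which replaces Psmb7, did not share that peak. Psmb10 levels in the IL-27 matrix were 90.6 CPM in Treg, 95.7 in the rest of the T cells, 98.0 in CD8 T cells and 132 in NK cells. Psmb10 was at 119 CPM in cDC1 and 146 in mature DC of that matrix, and at 89.9 in macrophages, 112 in monocytes, 15.8 in neutrophils and 49.3 in tumour cells. Most leukocyte classes lay close together. Psmb10 levels in the control matrix were 133 CPM in Treg, 125 in the rest of the T cells, 161 in CD8 T cells and 114 in NK cells. Psmb10 was at 159 CPM in cDC1 and 162 in mature DC of that matrix, and at 106 in macrophages, 158 in monocytes, 20.9 in neutrophils and 60.7 in tumour cells. Mature DC had the top value and lay above macrophages beyond counting error in both matrices, while the intervals of neighbouring classes between them overlapped. Neutrophils were lowest, below tumour cells beyond counting error in both matrices.

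Nlrc5, the transactivator, was sparse, and its highest levels were in T cells. Nlrc5 levels in the IL-27 matrix were 46.3 CPM in Treg, 59.2 in the rest of the T cells, 59.7 in CD8 T cells and 16.9 in NK cells. Nlrc5 was at 8.74 CPM in cDC1 and 23.7 in mature DC of that matrix, and at 9.32 in macrophages, 13.3 in monocytes, 21.4 in neutrophils and 8.34 in tumour cells. The T cell classes stood apart from the rest. Nlrc5 levels in the control matrix were 46.6 CPM in Treg, 53.2 in the rest of the T cells, 50.9 in CD8 T cells and 17.3 in NK cells. Nlrc5 was at 8.84 CPM in cDC1 and 16.3 in mature DC of that matrix, and at 9.46 in macrophages, 15.8 in monocytes, 18.1 in neutrophils and 6.93 in tumour cells. CD8 T cells, Treg and the rest of the T cells overlapped each other and lay above every other class in both matrices. All lower neighbours overlapped, and only 19 UMIs stood behind each cDC1 value and 11 (IL-27) and 12 (control) behind those of NK cells. cDC1, the class with the most Tap1, Tap2, Psmb8 and Psmb9, thus had one of the lowest Nlrc5 levels.

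Shares of cells with a UMI were taken at equal depth. All cells were thinned to 1000 UMIs and shallower ones left out, which removed 450 neutrophils from the IL-27 matrix and 388 from the control matrix, 184 macrophages (IL-27) and 175 (control), and at most 20 cells of any other class. H2-K1 had a UMI in 97.3% (94.7 to 98.8) of IL-27 Treg and 97.2% (94.0 to 99.0) of control Treg, with exact Clopper-Pearson intervals in brackets. In neutrophils the share was 39.9% (38.1 to 41.7) in the IL-27 matrix and 44.6% (43.0 to 46.2) in the control matrix. Psmb9 had a UMI in 54.8% (45.7 to 63.8) of IL-27 cDC1 and 57.7% (48.7 to 66.3) of control cDC1, against 98.4% (IL-27) and 93.9% (control) before thinning. Psmb8 had one in 30.9% (21.9 to 41.1) of IL-27 CD8 T cells and 51.3% (45.1 to 57.5) of control CD8 T cells, and in 3.21% (2.59 to 3.93) of IL-27 neutrophils and 4.70% (4.05 to 5.41) of control neutrophils. Unthinned shares were 80.8% (IL-27) and 95.1% (control) of CD8 T cells and 6.03% (IL-27) and 10.7% (control) of neutrophils. No class here is one that should lack class I, so these shares have no background class beside them; for Psmb8, tumour cells had the lowest share.

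The balance between immunoproteasome and standard catalytic subunits separated the classes further. It was taken as the UMIs of Psmb8, Psmb9 and Psmb10 over these plus Psmb5, Psmb6 and Psmb7, and is a share of transcripts, not of assembled particles. It was 12.0% (11.3 to 12.8) in IL-27 tumour cells and 14.8% (14.1 to 15.6) in control tumour cells, the lowest of all classes. cDC1 had 74.1% (72.9 to 75.4) in the IL-27 matrix and 77.4% (76.3 to 78.5) in the control matrix, and mature DC 72.7% (71.3 to 74.2) in the IL-27 matrix and 70.8% (69.4 to 72.2) in the control matrix. Both dendritic classes therefore had higher shares than all other classes in both matrices. In the control matrix the interval of mature DC overlapped those of Treg and CD8 T cells. The share is compared between classes and is not read as an excess of some genes over others. T cells lay between 64.4% and 64.9% in the IL-27 matrix and between 66.2% and 70.0% in the control matrix, with Treg at the top of both ranges. NK cells had 56.9% (IL-27) and 58.8% (control). Monocytes had 45.9% (IL-27) and 52.6% (control), macrophages 44.3% (IL-27) and 46.4% (control), and neutrophils 41.1% (IL-27) and 46.8% (control).

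The pairs did not move alike. In tumour cells the share of Psmb8 in its pair with Psmb5 was 2.29% (1.72 to 2.98) in the IL-27 matrix and 3.42% (2.76 to 4.17) in the control matrix. In the same cells that of Psmb9 in its pair with Psmb6 was 9.61% (8.65 to 10.6) in IL-27 and 11.8% (10.9 to 12.8) in control tumour cells. For Psmb10 with Psmb7 it was 30.5% (28.3 to 32.7) in IL-27 and 37.5% (35.4 to 39.7) in control tumour cells. The tumour cells were thus lowest for Psmb8 and nearer to the leukocytes for Psmb10. In neutrophils the Psmb8 share was 50.1% (IL-27) and 58.0% (control), but the Psmb10 share 30.1% (IL-27) and 34.7% (control), close to that of tumour cells. cDC1 had a Psmb9 share of 78.6% (IL-27) and 79.3% (control) and a Psmb8 share of 76.6% (IL-27) and 80.1% (control), but a Psmb10 share of 47.1% (IL-27) and 58.5% (control). Macrophages had the lowest Psmb9 share of the leukocytes, 32.3% (IL-27) and 32.5% (control).

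Between the groups, the summed share was lower in the IL-27 matrix in 9 of 10 classes, mature DC being the exception. The 95% intervals of the groups did not overlap in tumour cells, neutrophils, monocytes, cDC1, CD8 T cells and Treg, and they overlapped in macrophages, mature DC, NK cells and the rest of the T cells.

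**Figure D3:**
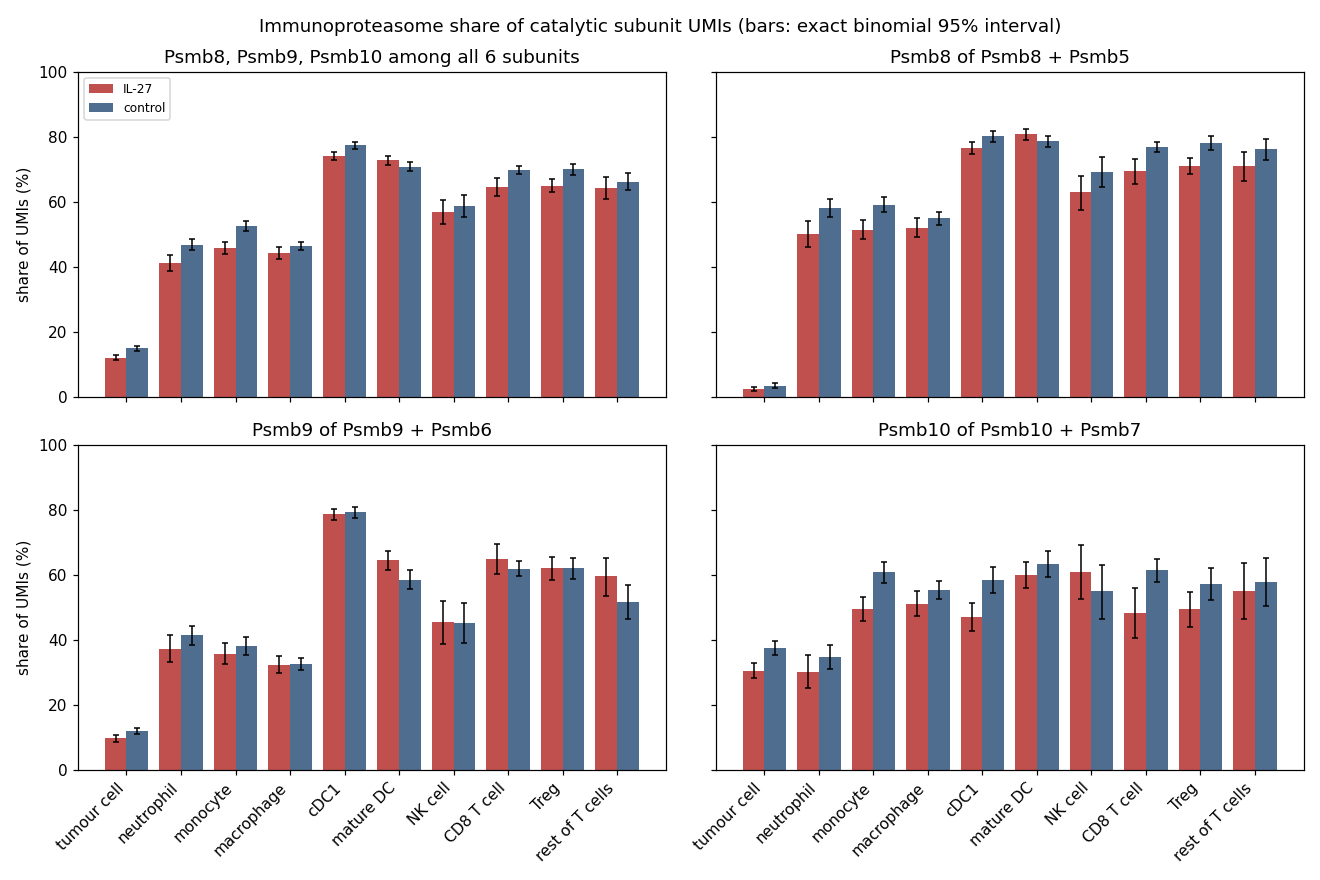
Share of immunoproteasome subunit UMIs (percent, y axis) in each cell class, for all 3 pairs of subunits together and for each pair, with the IL-27 matrix left of the control matrix; error bars are exact binomial 95% intervals, which cover counting error only. Tumour cells are lowest at 12.0% in the IL-27 matrix and 14.8% in the control matrix, and cDC1 highest at 74.1% in the IL-27 matrix and 77.4% in the control matrix.

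In tumour cells the H2-K1 level was above that of neutrophils, while Psmb8 was nearly undetected. Of the tumour cells, 95.7% in the IL-27 matrix and 95.6% in the control matrix had an H2-K1 UMI, against 8.17% (IL-27) and 9.59% (control) with a Psmb8 UMI, before thinning and at medians of 46652 (IL-27) and 42643 (control) UMIs. Thinned to 1000 UMIs, Psmb8 was seen in 0 of 206 IL-27 tumour cells, which allows a share of up to 1.46% with a UMI at that depth by a floor of 3 counts and 1.77% by the exact upper limit, and in 2 of 264 control tumour cells (0.758%). The IL-27 value rests on 53 Psmb8 UMIs, of which 32.1% came from a single cell with 17 UMIs, and the control value on 92 UMIs, of which 10.9% came from a single cell. Psmb5, its standard partner, was at 219.8 (211 to 229) CPM in IL-27 tumour cells and 214 (206 to 223) CPM in control tumour cells, close to the 242 CPM (IL-27) and 225 CPM (control) of cDC1. Some of the Psmb8 UMIs stood in tumour cells that also held Ptprc: the 16 such IL-27 cells had 23.9 CPM and the 12 such control cells 36.0 CPM, while the other 192 IL-27 cells had 3.66 CPM and the other 259 control cells 5.79 CPM. The neutrophil markers in tumour cells summed to 44.2 CPM (IL-27) and 99.1 CPM (control), with 6 of 6 detected in both, and the macrophage markers to 11.3 CPM (IL-27) and 15.7 CPM (control). Larger sums were those of the monocyte markers, 1409 CPM (IL-27) and 1384 CPM (control), with 6 of 6 detected in both. Of these, Ly6c2 gave 3.01 CPM (IL-27) and 1.90 CPM (control), and Ccr2 0.970 CPM (IL-27) and 0.495 CPM (control). The cDC1 markers summed to 151 CPM (IL-27, 4 of 6 detected) and 130.5 CPM (control, 3 of 6 detected). Whether the tumour cells made these transcripts themselves, and the part of the markers in the remaining Psmb8 value, was not tested. Psmb8 in IL-27 tumour cells was 1.93 CPM where a class had to lead by 2 markers and 2.06 CPM without the highest doublet scores.

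Tumour cells with at least 10000 UMIs, 184 in the IL-27 matrix and 241 in the control matrix, show how the genes varied among single cells. None of them was at 0 for H2-K1, H2-D1 or B2m. The variance among the IL-27 cells over that of a Poisson count ran from 1.24 (Nlrc5) to 13.9 (H2-K1) for the members. In control cells it ran from 1.22 (Nlrc5) to 16.3 (H2-K1). The intervals of counting error used for the classes do not cover this spread among cells. H2-K1 ran from 482 CPM at the 10th percentile of IL-27 cells over a median of 949 to 1647 CPM at the 90th, and from 604 over 1190.2 to 2043 CPM in control cells. H2-D1 had medians of 918 CPM (IL-27) and 1239 CPM (control), and B2m 1187 CPM (IL-27) and 1211 CPM (control). By contrast Psmb8 was at 0 in 167 of 184 IL-27 cells and 215 of 241 control cells, Tap1 in 100 (IL-27) and 137 (control), Psmb9 in 95 (IL-27) and 114 (control), and Tapbp in 26 (IL-27) and 33 (control). Across these cells the ranks of H2-K1 and H2-D1 had a Spearman correlation of 0.77 in the IL-27 matrix and 0.74 in the control matrix, H2-K1 and Psmb9 0.51 (IL-27) and 0.45 (control), and H2-K1 and Tap1 0.36 (IL-27) and 0.24 (control). H2-K1 and the total UMIs of the cell had 0.25 (IL-27) and 0.11 (control). These values describe cells of 1 library each, which share depth and reads that could be split between H2-K1 and H2-D1. The tumour cells thus varied in class I level over about the same fold range in both matrices, 3.42-fold (IL-27) and 3.38-fold (control) for H2-K1 from the 10th to the 90th percentile.

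In cDC1 with at least 10000 UMIs, 88 in the IL-27 matrix and 95 in the control matrix, no cell was at 0 for H2-K1, H2-D1, B2m, Psmb8 or Psmb9. Psmb9 had a median of 675 CPM in IL-27 cells and 802 CPM in control cells, and Psmb8 705 CPM in IL-27 cells and 764 CPM in control cells. Nlrc5 was at 0 in 76 of 88 IL-27 cells and 84 of 95 control cells. The correlation of H2-K1 and H2-D1 was 0.68 (IL-27) and 0.73 (control), and that of H2-K1 and Psmb10 -0.01 (IL-27) and -0.04 (control).

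The comparison of the IL-27 with the control matrix asked whether the class I pathway differed after IL-27, class by class. Most ratios were modestly under 1: of the 98 gene and class pairs with at least 50 UMIs over both matrices, 78 had a ratio of IL-27 to control under 1 (79.6%). Over the same classes this held for 50.1% of all genes tested and for 77.1% of the housekeeping genes, 91 of 118, so the share of the members was close to that of the housekeeping genes. A pair counts as lower or higher here when its ratio is at or beyond 1.5-fold. By that measure 5 pairs were lower and 0 higher: Psmb8 in CD8 T cells, monocytes and the rest of the T cells, Psmb10 in CD8 T cells, and H2-D1 in NK cells. The share of all genes that was lower by this measure was 11.1% in CD8 T cells (2 of 10 members), 7.48% in monocytes (1 of 10), 11.0% in the rest of the T cells (1 of 10) and 12.3% in NK cells (1 of 9). It was 5.26% in tumour cells, 5.41% in neutrophils, 3.86% in macrophages, 4.86% in cDC1, 8.64% in mature DC and 7.69% in Treg, where 0 members were lower. With about 10 members a class, these counts are near the background and are not a result about the members. Higher by the same measure were 3.64% of genes in tumour cells, 11.0% in neutrophils, 4.54% in monocytes, 4.6% in macrophages, 7.32% in cDC1, 8.83% in mature DC, 8.06% in NK cells, 8.44% in CD8 T cells, 6.98% in Treg and 10.1% in the rest of the T cells, and 0 members in any of them. Divided by the median ratio of genes of like transcript length and GC content, 0 pairs were lower; this alternative was added after the data were seen. The count of lower pairs was 13 where a class had to lead by 2 markers, 11 with the mean of per-cell CPM, 9 where 1 UMI was enough for a marker and 9 without the highest doublet scores, so it depends on how cells are assigned and weighted.

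H2-K1 and H2-D1 had ratios under 1 in 10 of 10 classes each. H2-K1 ran from 0.698 (0.657 to 0.740) in cDC1, with the exact conditional 95% interval in brackets, to 0.958 (0.916 to 1.00) in mature DC, and the interval lay below 1 in 9 classes. For H2-D1 the interval lay below 1 in 10 classes, from 0.651 (0.606 to 0.700) in NK cells to 0.944 (0.900 to 0.990) in macrophages. H2-D1 in NK cells was at 1832 CPM in the IL-27 matrix and 2813 CPM in the control matrix. The NK cells of the matrices also differed in markers of other cells: the 9 tumour markers summed to 6.16 CPM in IL-27 NK cells, with 2 of 9 detected, and 439.9 CPM in control NK cells, with 5 of 9 detected, and the 6 monocyte markers to 667 CPM (IL-27) and 1103 CPM (control). In the control NK cells Krt8 gave 188 CPM and Krt18 152 CPM of the tumour sum, each seen in only 2.33% of the cells. Ccr2, counted with the monocyte markers, was seen in 44.2% of IL-27 and 45.3% of control NK cells. The part of these markers in the H2-D1 value was not tested. Relative to like length and GC, the H2-K1 ratio was under 1 in 7 of 10 classes and H2-D1 in 9 of 10.

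B2m did not follow the heavy chains. Its interval lay above 1 in 6 classes, with 1.22 (1.15 to 1.30) in the rest of the T cells, 1.20 (1.15 to 1.26) in mature DC, 1.20 (1.15 to 1.24) in Treg, 1.17 (1.14 to 1.20) in neutrophils, 1.13 (1.08 to 1.19) in CD8 T cells and 1.13 (1.06 to 1.21) in NK cells. In cDC1 it was 0.844 (0.789 to 0.903), below 1. Counted per H2-K1 UMI, B2m was higher in the IL-27 than in the control matrix in 10 of 10 classes, from 1.09 (1.03 to 1.15) in macrophages to 1.43 (1.32 to 1.55) in the rest of the T cells, by Woolf's interval for a ratio of counts. Counted per H2-D1 UMI it was 1.74 (1.57 to 1.92) in NK cells, 1.65 (1.56 to 1.74) in Treg and 1.05 (0.994 to 1.11) in macrophages, where the interval held 1. A ratio of genes within a class does not change with the scaling of the matrices, but it is not corrected for transcript length or GC content. The longest B2m transcript has 860 bases and 41.2% GC, and that of H2-K1 1874 bases and 54.3% GC. Over the classes the median ratio was 1.13 for B2m, 0.848 for H2-K1 and 0.737 for H2-D1. Relative to genes of like length and GC these medians were 1.06, 0.977 and 0.851, so the genes lay closer together. B2m was then under 1 in 1 of 10 classes.

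Of the transporter and loading genes, Tap2 had ratios under 1 in 10 of 10 classes, from 0.697 (0.485 to 0.994) in NK cells to 0.946 (0.797 to 1.12) in macrophages. Tap1 was under 1 in 7 of 10, with 0.676 (0.552 to 0.822) in CD8 T cells, 0.750 (0.620 to 0.906) in monocytes, 0.783 (0.701 to 0.874) in cDC1 and 1.12 (0.918 to 1.37) in mature DC. The Tapbp intervals held 1 in 8 of 10 classes; the exceptions were neutrophils, at 1.14 (1.04 to 1.24), and NK cells, at 0.777 (0.621 to 0.971).

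Psmb8 had an interval below 1 in 10 of 10 classes, and the lowest ratio of any gene and class. The ratio was 0.574 (0.495 to 0.664) in the rest of the T cells, 0.602 (0.538 to 0.671) in CD8 T cells, 0.660 (0.596 to 0.730) in monocytes and 0.671 (0.614 to 0.734) in Treg. It was 0.677 (0.474 to 0.960) in tumour cells, 0.758 (0.663 to 0.865) in neutrophils, 0.760 (0.691 to 0.837) in macrophages, 0.781 (0.651 to 0.936) in NK cells, 0.841 (0.786 to 0.900) in mature DC and 0.873 (0.818 to 0.932) in cDC1. The CD8 T cell levels were 459 CPM in the IL-27 matrix and 762 CPM in the control matrix. Psmb9 ratios ran from 0.725 (0.639 to 0.823) in Treg to 0.968 (0.868 to 1.08) in mature DC, with intervals below 1 in 7 classes. Psmb10 ratios ran from 0.609 (0.475 to 0.773) in CD8 T cells to 1.17 (0.849 to 1.60) in NK cells, also with 7 intervals below 1. Per Psmb9 UMI, Psmb8 was 0.616 (0.479 to 0.794) times the control value in the rest of the T cells and 0.706 (0.595 to 0.838) in CD8 T cells, while in cDC1 it was 1.03 (0.934 to 1.12). Nlrc5 had no interval off 1 in the 8 classes with enough UMIs, from 0.842 (0.553 to 1.27) in monocytes to 1.46 (0.943 to 2.29) in mature DC.

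Several other measures moved with these differences. Over all genes with at least 50 UMIs the median log2 ratio was near 0, from -0.07 in NK cells to 0.09 in neutrophils, and the median over the members tested was under 0 in 10 of 10 classes. The members' median was -0.44 in monocytes, -0.36 in NK cells, -0.34 in Treg, -0.33 in CD8 T cells, -0.31 in tumour cells and -0.24 in cDC1. It was -0.16 in neutrophils, -0.13 in the rest of the T cells, -0.08 in macrophages and -0.05 in mature DC. Housekeeping genes, 12 in all, had medians of -0.31 in CD8 T cells, -0.33 in Treg, -0.33 in the rest of the T cells and -0.32 in NK cells, about as low as the members in CD8 T cells, Treg and NK cells, and lower than the members in the rest of the T cells. In mature DC they were also below the members, at -0.12. The housekeeping medians were -0.20 in tumour cells, -0.11 in monocytes, -0.09 in cDC1, -0.08 in neutrophils and 0.06 in macrophages. Class II genes, which mouse T cells do not normally make, summed to 241 CPM in IL-27 CD8 T cells and 1239 CPM in control CD8 T cells. In Treg they summed to 794 CPM (IL-27) and 2437 CPM (control), and in the rest of the T cells to 1405 CPM (IL-27) and 4820.0 CPM (control). They were lower in 5 of 5 cases in CD8 T cells, 6 of 6 in Treg, 4 of 6 in the rest of the T cells, 4 of 4 in NK cells, 5 of 6 in tumour cells and 5 of 6 in mature DC, and 2 of 6 were higher in neutrophils. Of all genes, 11.1% were lower in CD8 T cells, 7.69% in Treg and 11.0% in the rest of the T cells. The same share was 12.3% in NK cells, 5.26% in tumour cells and 8.64% in mature DC, and 11.0% were higher in neutrophils. The mature DC markers in CD8 T cells, of which 4 of 6 were detected in the IL-27 and 6 of 6 in the control matrix, summed to 438 CPM (IL-27) and 278 CPM (control), and the monocyte markers to 805 CPM (IL-27) and 1687 CPM (control). Of the mature DC sum in CD8 T cells, Ccr7 alone gave 413 CPM (IL-27) and 241 CPM (control). Ly6c2 gave 257 CPM (IL-27) and 289 CPM (control) of the monocyte sum, and was seen in 32.3% (IL-27) and 36.7% (control) of CD8 T cells. Whether these UMIs came from other cells or from the T cells themselves was not tested. In the monocytes the neutrophil markers, all 6 detected, summed to 3392 CPM (IL-27) and 1194 CPM (control). Their part in the Psmb8 and Psmb10 values was not tested.

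**Figure D4:**
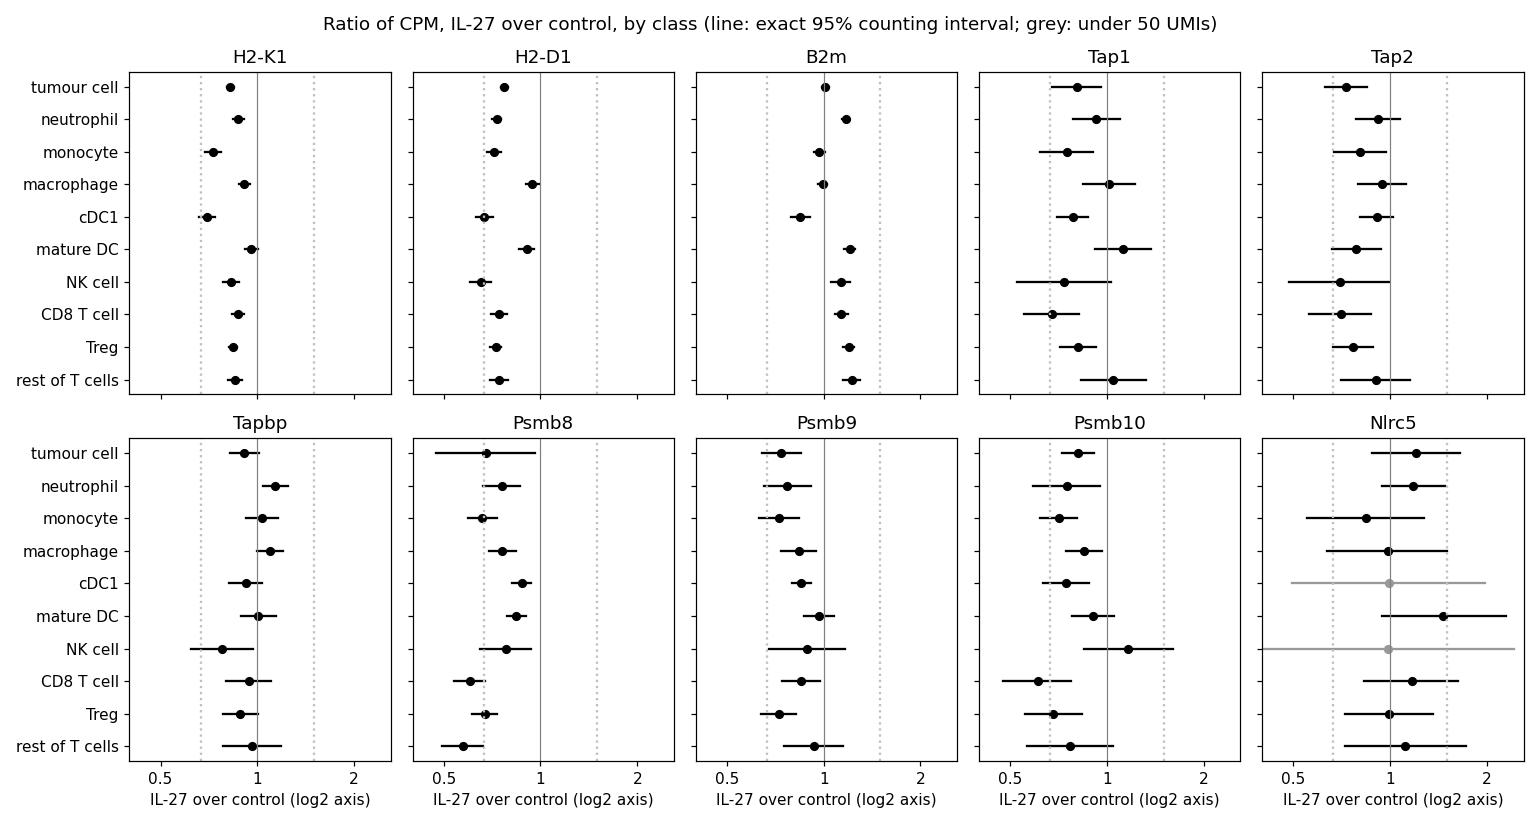
Ratio of the level in the IL-27 matrix to that in the control matrix (log2 axis) for each gene in each cell class, with exact conditional 95% intervals that cover counting error only. Psmb8 and H2-D1 lie under the line of equal levels in 10 of 10 classes, B2m lies above it in 7 of 10, and the Nlrc5 intervals cross it in each class.

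Among the other class I heavy chains and class I-like molecules, 16 of 18 listed symbols were counted. In monocytes 11 had at least 50 UMIs, of which 5 were lower and 0 higher (median log2 ratio -0.54), and in cDC1 3 of 9 were lower and 0 higher (-0.50). H2-Q4, a Qa region heavy chain, had a monocyte level of 34.4 CPM in the IL-27 matrix and 62.8 CPM in the control matrix. Its neutrophil level was 54.0 CPM in the IL-27 matrix and 101 CPM in the control matrix. H2-T22, a non-classical chain seen by some gamma delta T cells, had a ratio of 0.559 in Treg, 0.535 in cDC1 and 0.582 in monocytes. In neutrophils 4 of 12 were lower and 3 higher, in macrophages 2 of 11 lower and 1 higher, in tumour cells 2 of 10 lower and 2 higher, and in Treg 1 of 7 lower and 0 higher; in mature DC (10), NK cells (5), CD8 T cells (6) and the rest of the T cells (6), 0 were beyond 1.5-fold. Of all genes, 7.48% were lower in monocytes, 4.86% in cDC1 and 7.69% in Treg. In neutrophils 5.41% of all genes were lower and 11.0% higher, in macrophages 3.86% and 4.6%, and in tumour cells 5.26% and 3.64%. Fcgrt, the neonatal Fc receptor chain that also pairs with B2m, had a ratio of 2.48 in neutrophils, 1.52 in macrophages and 0.525 in tumour cells.

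The standard catalytic subunits Psmb5, Psmb6 and Psmb7 had 0 members lower or higher in any class. Of the other 11 core subunits, 4 were lower and 0 higher in the rest of the T cells (median log2 ratio -0.48). These were Psma2 at a ratio of 0.571, Psma3 at 0.650, Psmb2 at 0.653 and Psmb3 at 0.665. Among the same 11, 1 was lower in CD8 T cells (Psmb2, 0.540), and in NK cells 1 was lower (Psma1, 0.658) and 1 higher (Psmb4, 1.96). Of all genes, 11.0% were lower in the rest of the T cells, 11.1% in CD8 T cells and 12.3% in NK cells. In the rest of the T cells, where Psmb8 had its lowest ratio, 11 of 11 of these core subunits had ratios under 1. Housekeeping genes there had a median log2 ratio of -0.33, with 10 of 11 ratios under 1. Any tie between the core subunits and the Psmb8 ratio was not tested. Psme4, the PA200 activator cap and not the interferon-induced PA28 cap, was higher in 6 classes: its ratio was 3.22 in the rest of the T cells, 2.06 in NK cells, 1.96 in CD8 T cells, 1.60 in mature DC, 1.59 in monocytes and 1.52 in tumour cells. Of the assembly chaperones, Psmg1 was lower in monocytes (0.471) and Treg (0.621), and Psmg2 (1.65) and Psmg3 (1.70) were higher in cDC1. The trimming enzyme and loading chaperone list had a median above 0 in 8 of 10 classes. In cDC1 8 of 8 ratios were over 1 (median log2 ratio 0.31), with 0 beyond 1.5-fold, and in neutrophils 7 of 7 were over 1 (median 0.29), with 1 higher (Uggt1, the folding sensor of the endoplasmic reticulum, 1.93). The exceptions were mature DC, at -0.12, and the rest of the T cells, at -0.07. Uggt1 was lower in monocytes (0.653), and 0 others were beyond 1.5-fold.

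Of 19 factors known to act at class I promoters or in the signals that reach them, at most 4 were beyond 1.5-fold in any class. In CD8 T cells 3 of 16 were lower and 1 higher, against 11.1% and 8.44% of all genes. In the rest of the T cells 0 of 13 were lower and 3 higher, against 11.0% and 10.1%. In NK cells 3 of 10 were lower and 0 higher, against 12.3% and 8.06%. These shares of the factors were above those of all genes in part. With at most 19 factors a class, counts this small are not read as a result about the factors. Nfkb1, the p105 and p50 subunit of NF-kB, was higher in tumour cells (1.66), CD8 T cells (1.66), neutrophils (1.57) and the rest of the T cells (1.56). Irf1, which binds interferon-type elements, was lower in NK cells (0.619). Also lower were Relb in NK cells (0.639), Irf8 (0.637), Usf1 (0.632) and Rfxap (0.644) in CD8 T cells and Rfx5 in neutrophils (0.563). Higher were Nfyb in monocytes (1.52) and Creb1 (1.60) and Usf2 (1.54) in the rest of the T cells.

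Interferon-stimulated genes, none of which is a member, were lower in many classes and higher in none. Lower were 12 of 18 with enough UMIs in monocytes (median log2 ratio -1.08), 13 of 18 in macrophages (-0.91), 12 of 18 in neutrophils (-0.70), 8 of 10 in Treg (-0.96) and 5 of 8 in mature DC (-0.86). Lower were also 6 of 11 in tumour cells (-0.65), 2 of 4 in NK cells, 2 of 9 in CD8 T cells, 1 of 4 in cDC1 and 0 of 6 in the rest of the T cells. Of all genes, 7.48% were lower in monocytes, 3.86% in macrophages, 5.41% in neutrophils and 7.69% in Treg. The same share was 8.64% in mature DC, 5.26% in tumour cells, 12.3% in NK cells, 11.1% in CD8 T cells and 4.86% in cDC1. The counts in NK cells, CD8 T cells and cDC1 rest on few genes and are not read as a result. Isg15, a ubiquitin-like interferon product, had a Treg level of 104 CPM in the IL-27 matrix and 262 CPM in the control matrix. Its macrophage level was 72.8 CPM in the IL-27 matrix and 214 CPM in the control matrix. Genes best known for induction by interferon gamma had no common direction over the classes. In neutrophils 11 of 12 had ratios under 1, of which 2 were lower and 0 higher (median log2 ratio -0.35), and in CD8 T cells (-0.24) and cDC1 (-0.19) 1 was lower and 0 higher. In the rest of the T cells 5 of 12 were higher and 0 lower (Iigp1 7.74, Gbp4 2.74, Gbp2 2.24), and in tumour cells 2 of 11 were higher and 0 lower. Those in tumour cells were Gbp4, at 1.56, and Cxcl10, a chemokine that draws T cells, at 61.0 CPM in the IL-27 matrix and 23.4 CPM in the control matrix. In monocytes, macrophages, mature DC, NK cells and Treg at most 2 were lower and at most 2 higher. Of all genes, 10.1% were higher in the rest of the T cells and 3.64% in tumour cells. Ifng itself had a CD8 T cell level of 118 CPM in the IL-27 matrix and 41.5 CPM in the control matrix. The members' median was nearer 0 than that of the interferon-stimulated genes in 9 of 10 classes, the rest of the T cells being the exception.

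Within a class, most of the 10 genes were higher in the cells that carried interferon-stimulated transcripts. Cells were thinned to 1000 UMIs and those with 3 or more UMIs of the interferon-stimulated list were set against those with 0, in the same matrix. At least 50 cells on each side were found in 4 settings: IL-27 neutrophils (734 cells with 3 or more, 1181 with 0), control neutrophils (1381 and 1309), control monocytes (68 and 262) and control macrophages (106 and 910). Members at least 1.5-fold higher were 7 of 10 in IL-27 neutrophils, against 7.7% of all genes tested there, 8 of 10 in control neutrophils, against 7.5%, 8 of 9 in control monocytes, against 9.94%, and 8 of 9 in control macrophages, against 12.9%. At least 1.5-fold lower were 0 members in each, while 28.4%, 24.2%, 11.0% and 18.0% of all genes were, in the same order.

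Tap1 moved most among the genes with enough UMIs in all 4 settings, with a ratio of 4.16 in IL-27 neutrophils, 3.07 in control neutrophils, 4.14 in control monocytes and 3.43 in control macrophages. In control neutrophils this was 58.9 CPM in cells with 3 or more interferon-stimulated UMIs against 19.2 CPM in cells with 0. B2m had 2.02 in IL-27 neutrophils, 1.99 in control neutrophils, 1.54 in control monocytes and 1.77 in control macrophages. The heavy chains moved less than B2m in neutrophils: H2-K1 had 1.49 in IL-27 neutrophils, 1.46 in control neutrophils, 1.41 in control monocytes and 1.82 in control macrophages. H2-D1 had 1.57 in IL-27 neutrophils, 1.66 in control neutrophils, 1.56 in control monocytes and 1.92 in control macrophages. Tapbp had 1.79 in IL-27 neutrophils, 1.84 in control neutrophils, 3.14 in control monocytes and 2.14 in control macrophages. Tap2 had 1.85 in IL-27 neutrophils, 1.29 in control neutrophils, 2.29 in control monocytes and 1.67 in control macrophages. These genes of transport and loading were therefore above 1 in all 4 settings. Among the immunoproteasome subunits, Psmb9 had 1.91 in IL-27 neutrophils, 2.62 in control neutrophils, 2.92 in control monocytes and 1.90 in control macrophages. Psmb8 had 1.10 in IL-27 neutrophils, 1.96 in control neutrophils, 1.98 in control monocytes and 1.37 in control macrophages. Psmb10 had 0.972 in IL-27 neutrophils, 1.81 in control neutrophils, 3.07 in control monocytes and 2.17 in control macrophages. In IL-27 neutrophils the intervals of Psmb8 and Psmb10 held 1, at 1.10 (0.844 to 1.43) and 0.972 (0.572 to 1.61), while in control neutrophils they lay above 1, at 1.96 (1.62 to 2.37) and 1.81 (1.27 to 2.61); that difference between the matrices was not tested. Nlrc5 had 3.04 (2.00 to 4.70) in IL-27 neutrophils and 2.48 (1.69 to 3.71) in control neutrophils. The standard subunits differed among themselves. Psmb5 had 0.585 in IL-27 neutrophils, 0.559 in control neutrophils, 1.18 in control monocytes and 0.628 in control macrophages. Psmb6 had 0.557 in IL-27 neutrophils, 0.640 in control neutrophils, 0.902 in control monocytes and 0.934 in control macrophages, and Psmb7 had intervals that held 1 in all 4 settings, from 0.882 to 1.14. The median depth of the neutrophils before thinning was 1778 UMIs in cells with 3 or more and 1842 in cells with 0 in the IL-27 matrix, and 2315 and 2379 in the control matrix. Cells of 1 matrix share their source, and whether free RNA or doublets took part was not tested.

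**Figure D5:**
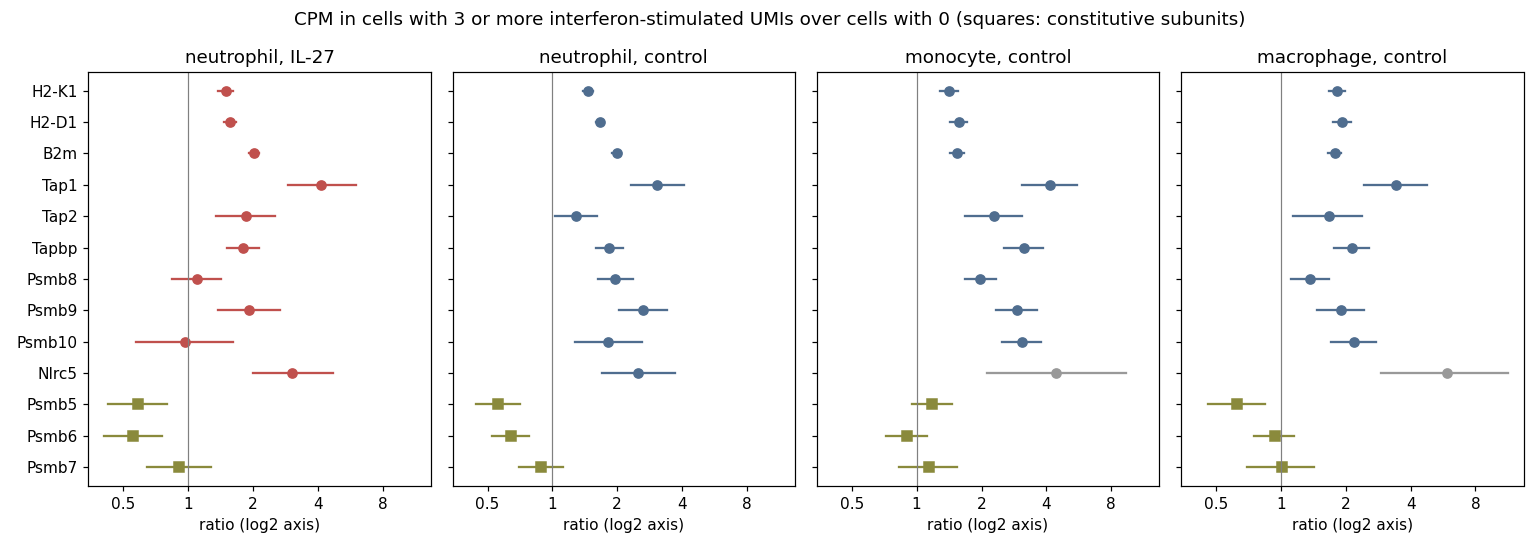
Ratio of each gene's level in cells with 3 or more interferon-stimulated UMIs to that in cells with 0 (log2 axis), within IL-27 neutrophils, control neutrophils, control monocytes and control macrophages; bars are exact conditional 95% intervals. The Tap1 ratio is over 3 in all 4 settings, and Psmb5 is under 1 in both neutrophil settings and in macrophages.

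Across the 10 classes the members fell into patterns that the groups of function only partly follow. On log2(CPM + 10) the Pearson correlation of H2-K1 and H2-D1 over the 10 classes was 0.96 (IL-27) and 0.92 (control), and of Tap1 and Tap2 0.99 (IL-27) and 0.98 (control). It was 0.97 (IL-27) and 0.96 (control) for Tapbp and Psmb8 and 0.91 (IL-27) and 0.91 (control) for Psmb9 and Tap1, which share a start region. B2m and Psmb9 had 0.13 (IL-27) and 0.19 (control), and Psmb10 and Nlrc5 0.08 (IL-27) and 0.25 (control). The 10 points of each matrix come from 1 library and differ in depth, so these values only describe the order of the classes. Among 5207 genes with at least 50 CPM in some class of both matrices, the 10 most like the mean of the members began with Cd48, an adhesion receptor of leukocytes, with 0.97 (IL-27) and 0.98 (control). The others were Plaat3 with 0.97 (IL-27) and 0.97 (control), Add3 with 0.96 (IL-27) and 0.97 (control), Tapbpl, the tapasin-like peptide editor, with 0.95 (IL-27) and 0.94 (control), and Madd, Zup1, P2ry10, Cblb, Cntrl and Nsd1, all with at least 0.93 in both matrices. By single member, H2-D1 was most like H2-Q4, with 0.98 (IL-27) and 0.98 (control), Psmb9 most like Tap2, with 0.93 (IL-27) and 0.95 (control), and Nlrc5 most like Cd3d, a chain of the T cell receptor complex, with 0.96 (IL-27) and 0.97 (control).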

How the data were processed

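For each group the authors deposited 1 matrix of raw UMI counts, genes by barcodes, whose header names Cell Ranger 4.0.0. Per the submitters' processing notes Cell Ranger 4.0 and Seurat 3.2.0 were used with build mm10. The sources used here give neither annotation nor strand setting. Receptor sequence libraries were not analysed here.

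Barcodes under 200 genes, under 500 UMIs or at 10% or more mitochondrial UMIs were left out (193 IL-27 and 167 control barcodes). A marker was seen in a cell at 1 or more UMIs and at least 100 CPM of that cell. UMIs were summed per class. CPM have exact Poisson, shares exact Clopper-Pearson and ratios exact conditional binomial intervals, all 95%; they cover counting error only, including at a count of 0, where a floor of 3 counts is used. Scrublet (scanpy 1.11.5) called 167 of 9990 IL-27 and 0 of 10617 control cells; it did not work for the control matrix, so doublets were kept, and an alternative left out 799 IL-27 and 849 control cells with the highest scores. Ratios were taken where a gene had at least 50 UMIs over both matrices. All 10 members are named; genes of other lists are named past 1.5-fold, at most 4 per list and class. A gene of the promoter factor list is not reported here. Listed symbols H2-T9, H2-T10 and Mx2 had no match. Members and lists were chosen with earlier results of these data known. The 1.5-fold calls and the intervals of the ratios were tested on counts simulated from Treg sums. The other computing steps were not tested in this way. Python 3.11.15, numpy 2.4.6, scipy 1.17.1 and pandas 2.3.3 were used.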

Additional observations from a re-analysis of the deposited data

Results flagged for a closer look

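B2m and Tapbp had ratios of the IL-27 to the control matrix on opposite sides of 1 in different classes, each with an interval that did not hold 1. B2m was at 1.22 in the rest of the T cells and at 0.844 in cDC1. Tapbp was at 1.14 in neutrophils and at 0.777 in NK cells. The difference between the classes was not tested, since each group is 1 matrix.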

How the results depend on the processing

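No paired analysis was possible because each group is 1 matrix with no map from cells to entries, and for the same reason no replicate could be left out. Depth limits what rests on few UMIs: Nlrc5 had from 11 to 196 UMIs in a class, and Tap2 in IL-27 NK cells had 54. Under the 9 alternatives that recompute the ratios, the Psmb8 ratio of IL-27 to control stayed under 1 in 10 of 10 classes. The 5 lower pairs became 13 where a class had to lead by 2 markers, 9 where 1 UMI was enough for a marker, 9 without the highest doublet scores, 11 with the mean of per-cell CPM, 0 at 2-fold and 0 relative to genes of like length and GC. H2-D1 in NK cells was not among them with 1 UMI for a marker or without the highest doublet scores. The 0 higher pairs became 1 (Nlrc5 in mature DC) without the barcodes found in both matrices. Psmb8 in IL-27 tumour cells was 1.93 CPM with a lead of 2 markers, 2.06 without high doublet scores and 3.66 without Ptprc cells (added after the data were seen); in control tumour cells it was 5.08 CPM with 1 UMI for a marker, 5.20 as a per-cell mean and 5.79 without Ptprc cells. Psmb8 in neutrophils was 37.4 CPM (IL-27) and 60.5 CPM (control) with a lead of 2 markers, 40.4 (IL-27) and 54.4 (control) without high doublet scores, and 33.4 (IL-27) and 58.9 (control) as a per-cell mean. H2-K1 in Treg was 3875 CPM (IL-27) and 4637 CPM (control) with 1 UMI for a marker, 4595 (IL-27) and 5264 (control) without high doublet scores, and 5177 (IL-27) and 5997 (control) as a per-cell mean. The summed immunoproteasome share of IL-27 tumour cells was 10.1% with a lead of 2 markers. Psmb9 was seen in 22.6% of IL-27 and 31.3% of control cDC1 at 500 UMIs per cell. The cause of these shifts was not tested, save that fewer UMIs per cell give fewer cells with a UMI. Of the other values, 79 group or class results stayed within counting error or 1.5 times, and of the ratios of single genes 878 did and 94 did not; none of the called ones changed sign. With 5 or more interferon-stimulated UMIs the monocyte setting had too few cells for a value.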
